A study of Drosophila melanogaster with 2 samples.

Results

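The 9 genes of the ecdysone response examined here for binding by a GFP-tagged homeobrain protein were EcR, usp, br, Eip74EF, Eip75B, Eip78C, Hr3, Hr4 and ftz-f1. They were listed by name with earlier results of these peaks known, and they are 9 of 13968 protein-coding genes on the chromosome arms. Each gene was taken with 5 kb on either side, and the summits inside that territory, 28 of 3592 in all, are the values the genes were chosen by and are given as description without a test. The samples were whole Drosophila melanogaster embryos collected 0 to 18 h after laying, of a transgenic strain with an insertion that makes an hbn-eGFP fusion. Chromatin was sonicated to 200 to 800 bp and precipitated with an antibody to GFP, in 2 biological replicates of 1 group. No group without the tag or with another hormone state was analysed here, so there is no contrast between conditions. Whole embryos mix all cell types and stages of that window, and a summit does not say in which cells the protein was bound.

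Ecdysone pulses drive moulting, metamorphosis and parts of embryogenesis in insects. The active hormone, 20-hydroxyecdysone, binds EcR, which pairs with the retinoid X receptor homologue usp, and the pair switches on early genes such as br, Eip74EF and Eip75B. Those encode transcription factors that act on later genes, while Eip78C, Hr3, Hr4 and ftz-f1 are nuclear receptors that relay and time the response. Several of these genes are long, with alternative starts that make protein isoforms with different roles. Homeobrain is a paired-like homeodomain factor of the embryonic brain.

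Examples of the summits behind the sequence difference described below are shown first. Summits at own starts and in introns of Eip74EF, Eip78C and ftz-f1 are shown for GAGAG, the element of the GAGA factor, of which some windows hold a run and others a single copy. Those at neighbouring genes are shown for TATCGA, the core of the site of the promoter factor DREF, which the window of the ftz-f1 RB start holds too. The usp start is shown because it was the strongest own-start summit and held neither. Capitals mark GAGAG or TATCGA on either strand. Windows reach 100 bp to each side of the summit, cut where an exon begins, on the strand of the ecdysone gene, from the RefSeq copy of Release 6 (dm6). Windows of EcR, Hr3 and Eip75B and those beside dor and PIG-K are not shown.
Eip74EF intron at 55.6 kb (chr3L:17563646-17563846, minus strand): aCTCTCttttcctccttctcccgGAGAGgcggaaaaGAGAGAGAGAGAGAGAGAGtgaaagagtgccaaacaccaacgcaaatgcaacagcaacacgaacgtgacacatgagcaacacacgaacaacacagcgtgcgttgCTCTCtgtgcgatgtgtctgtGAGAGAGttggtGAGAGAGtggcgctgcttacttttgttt
ftz-f1 RC and RD start (chr3L:18765790-18765990, minus strand): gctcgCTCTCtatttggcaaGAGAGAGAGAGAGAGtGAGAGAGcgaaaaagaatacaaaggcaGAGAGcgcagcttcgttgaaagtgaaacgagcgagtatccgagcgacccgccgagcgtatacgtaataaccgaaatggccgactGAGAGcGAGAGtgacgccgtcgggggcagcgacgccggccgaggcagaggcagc
Eip74EF intron at 45.3 kb (chr3L:17573936-17574136, minus strand): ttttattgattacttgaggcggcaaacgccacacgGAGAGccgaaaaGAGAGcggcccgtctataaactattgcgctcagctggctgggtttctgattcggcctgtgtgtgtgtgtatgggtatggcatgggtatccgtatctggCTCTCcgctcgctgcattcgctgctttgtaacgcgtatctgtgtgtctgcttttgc
Eip74EF RA, RC and RE start (chr3L:17619326-17619469, minus strand): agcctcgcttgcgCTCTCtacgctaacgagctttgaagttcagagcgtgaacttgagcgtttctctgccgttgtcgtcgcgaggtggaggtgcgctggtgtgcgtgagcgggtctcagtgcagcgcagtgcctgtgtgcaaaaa
Eip78C RB start (chr3L:21240168-21240346, plus strand): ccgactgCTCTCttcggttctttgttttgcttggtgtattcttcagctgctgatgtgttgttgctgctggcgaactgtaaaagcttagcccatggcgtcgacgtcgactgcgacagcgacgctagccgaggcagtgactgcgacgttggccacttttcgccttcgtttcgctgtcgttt
ftz-f1 RB start (chr3L:18801470-18801670, minus strand): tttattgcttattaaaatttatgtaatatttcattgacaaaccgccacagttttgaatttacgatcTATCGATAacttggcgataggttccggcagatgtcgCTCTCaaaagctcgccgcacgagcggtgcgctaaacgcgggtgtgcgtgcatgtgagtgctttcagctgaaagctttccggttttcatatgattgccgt
CycT start, beside Eip74EF (chr3L:17557789-17557923, minus strand): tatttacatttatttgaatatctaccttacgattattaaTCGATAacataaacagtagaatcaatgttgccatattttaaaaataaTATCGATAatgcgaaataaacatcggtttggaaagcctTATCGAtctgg
CG3740 start, beside br (chrX:1669323-1669523, plus strand): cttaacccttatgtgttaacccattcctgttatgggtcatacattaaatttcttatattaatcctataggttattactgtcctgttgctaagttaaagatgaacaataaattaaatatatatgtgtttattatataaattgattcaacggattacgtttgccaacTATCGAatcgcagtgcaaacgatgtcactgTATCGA
Atg3 start, beside ftz-f1 (chr3L:18748549-18748686, minus strand): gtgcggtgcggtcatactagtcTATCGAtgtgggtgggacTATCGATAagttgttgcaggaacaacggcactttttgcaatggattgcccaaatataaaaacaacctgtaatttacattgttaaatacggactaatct
usp RA start (chrX:2041387-2041460, minus strand): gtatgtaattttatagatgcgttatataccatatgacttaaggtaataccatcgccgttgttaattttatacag

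All 9 genes had at least 1 summit of the conservative peak set, whose threshold comes from comparing the replicates. Over all protein-coding genes 50.1% had one in the same territory, and of genes of at least 10 kb, a length that 8 of the 9 reach, 57.8% had one. Those 8 are far longer than that limit, from 33354 to 113744 bp, and no share is given for genes of their length. For br and Hr4 the only summits were at the starts of other genes. The 28 summits formed 24 separate regions. Of them, 9 lay within 500 bp of a start of the ecdysone gene itself, 7 at the start of another gene, 6 at tRNA genes, all in the EcR territory, and 6 more than 500 bp from every annotated start. Thus 22 of 28 (78.6%) were at some start, against 88.9% of all conservative summits. By annotation, 15 were in introns, 7 between genes, 3 in 5' UTRs, 2 in coding exons and 1 in a non-coding exon. In the set called from replicate 1 alone, 7 genes had 18 summits and 47.3% of all protein-coding genes had a summit in their territory. In that of replicate 2 alone, 5 genes had 8, and the share of all genes was 37.6%.

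**Figure D1:**
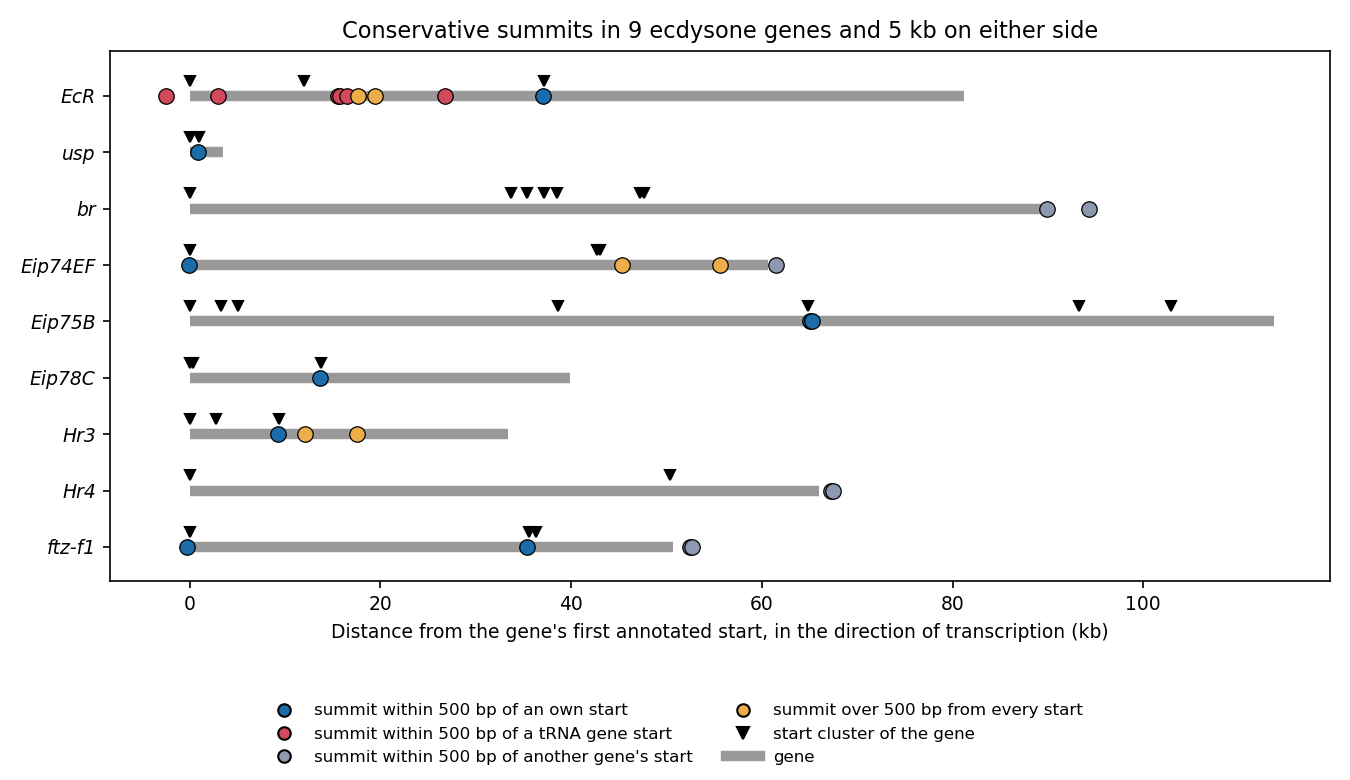
Conservative summits along the 9 genes, drawn in kb from the first annotated start in the direction of transcription. Grey bars are genes, black triangles are clusters of transcript starts and circles are summits, coloured by what they lie beside. EcR holds 9 of the 28 summits, and 6 of those are at tRNA genes, while br and Hr4 have summits past their ends only.

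Signal here is the deposited enrichment value of a peak, whose scale is not stated, and a percentile is the share of all conservative summits with a lower one. Most of these summits were weak, with 18 of 28 below the median of all conservative summits, 118.7. Summits at own starts had a median signal of 88.0 and a range from 17.0 to 265.4, and those away from starts a median of 75.5 and a range from 52.1 to 176.2. The summits at tRNA genes had a median of 87.8 and those at other genes' starts one of 184.8. Both replicates' own thresholded sets held a summit in 9 of the 28 peaks (32.1%), against 1883 of all conservative peaks (52.4%). Another 8 (28.6%) were in replicate 1's set alone, against 21.4% of all conservative peaks, 0 in replicate 2's alone, against 4.20%, and 11 (39.3%) in neither, against 22.0%. The summits in both sets were 5 at other genes' starts, 2 at own starts (usp and the RB start of ftz-f1) and 2 in introns (EcR and Eip74EF). Of the 5, 2 are overlapping entries at Atg3, beside ftz-f1, that match the same entry in each replicate. Each replicate's ranked list is longer and includes entries under the threshold. There, 27 of the 28 peaks (96.4%) had an entry in replicate 1, against 97.9% of all conservative peaks, and 24 (85.7%) in replicate 2, against 97.0%.

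**Figure D2:**
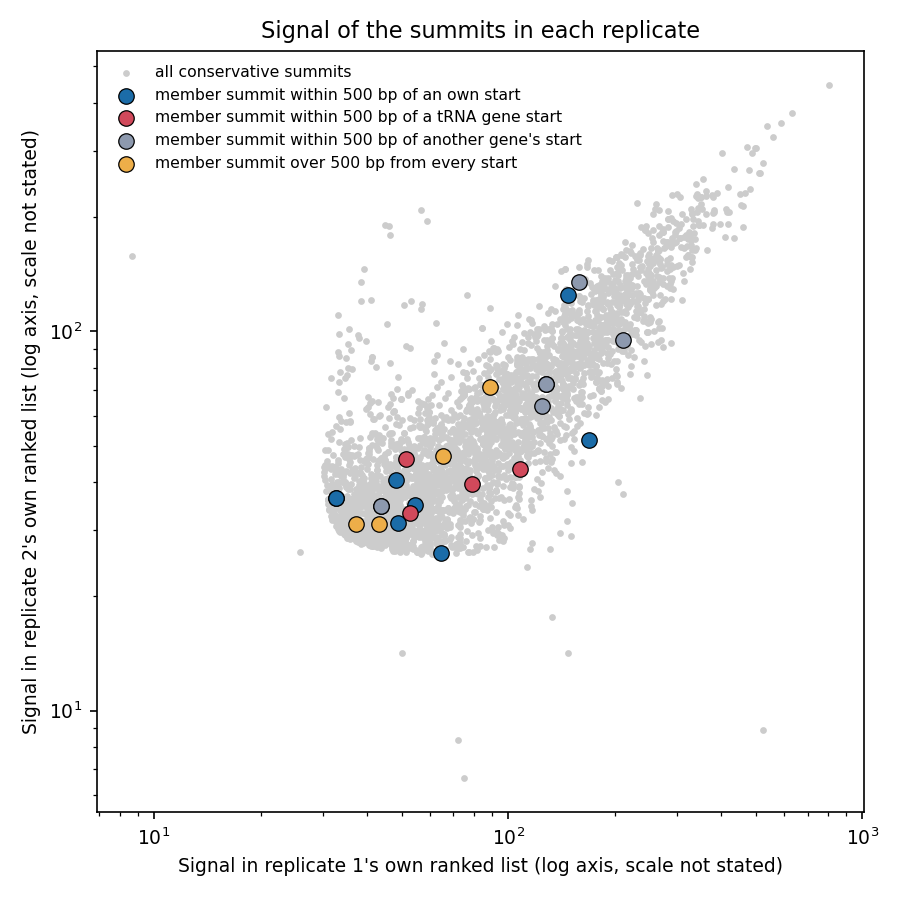
Signal of each summit in replicate 1 (horizontal, log axis) against replicate 2 (vertical, log axis), from each replicate's own ranked list. Grey points are all conservative summits with an entry in both lists, and coloured points are those in the territories of the 9 genes. Many coloured points sit near the lower left, and the higher ones include usp (147.6 and 124.4) and the CycT start beside Eip74EF (158.5 and 134.9).

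EcR (FBgn0000546) encodes the ecdysone receptor and lies on the minus strand at chr2R:6087873-6169087. It had 9 summits in 8 regions, spaced 207 to 12556 bp apart, and 2 protein-coding genes of the whole set, EcR among them, had as many. Of the 9, 6 were within 500 bp of the start of a tRNA gene, a class of short genes transcribed by RNA polymerase III. The EcR territory held 16 tRNA genes, 13 of them inside EcR, and no other protein-coding gene had that many in its own territory. Of these tRNA genes 9 of 16 (56.2%) had a summit within 500 bp, against 32.1% of all 290 tRNA genes. Neighbouring tRNA genes shared summits, so the 9 lay beside only 6 summits. Among all conservative summits 1.81% were that close to a tRNA gene. Without such summits EcR had 3, a number that 1531 protein-coding genes reached or passed when counted the same way. The count rested mainly on replicate 1, whose own set gave 7 summits at EcR, against 1 in that of replicate 2.

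Reading along the gene, the summit at tRNA:Lys-CTT-1-5, at -2.50 kb from the first start of EcR, had a signal of 146.4, with 108.3 in replicate 1 and 43.3 in replicate 2. At tRNA:Ile-AAT-1-1, 3.01 kb into the gene, it was 80.4 (52.9 and 33.2). Next came 3 summits at tRNA:Asn-GTT genes. A pair of overlapping entries at 15.6 and 15.8 kb had signals of 20.8 and 73.7, and replicate 1 had an entry inside the stronger of them only (57.9) and replicate 2 inside the weaker only (29.2). The third, at 16.5 kb, had 95.1 (51.4 and 46.1). The summit beside tRNA:Arg-ACG-1-1, at 26.8 kb, had 129.1 (79.3 and 39.7). Replicate 1's own set held 5 of these 6 summits and replicate 2's set 0. Over all 65 conservative summits near tRNA genes the shares were 70.8% and 33.8%, and over all conservative summits 73.8% and 56.6%.

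The tRNA genes here are repeated in the genome, with 9 to 13 identical copies each. The EcR territory itself holds several tRNA:Asn-GTT, tRNA:Lys-CTT and tRNA:Arg-ACG genes, so not all copies are elsewhere. Of the 50-base words in the windows around the 6 summits, 76.3% to 100% occurred once in the genome, whereas at each of the other 22 summits all words did. How reads with several places of origin were handled is not given in the sources used here, and its part in these summits was not tested. The letters GGTTCGA, part of the B box inside tRNA genes, were within 100 bp of all 6, against 46.2% of all summits near tRNA genes and 2.37% of all conservative summits. That motif was added after the values were seen.

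The other 3 summits of EcR were in introns. The strongest of all 9, at 17.7 kb and 1244 bp from the nearest start, a tRNA gene, had a signal of 176.2 (89.1 and 71.5), was in both replicates' own sets and held TATCGA. A second, at 19.4 kb, was weaker at 52.1 (37.1 and 31.1). The remaining one lay 78 bp upstream of the start shared by the transcripts RB, RC and RG, 37.1 kb into the gene, with a signal of 88.0 (54.5 and 34.9), and was in neither replicate's own set. EcR has 3 clusters of starts, and this was the only one with a conservative summit. At the RD and RE start the best entry of the replicate pair had an irreproducible discovery rate (IDR, the estimated share of peaks at that rank or better that are not reproducible between replicates) of 0.096 and a signal of 36.0. At the RA start it had an IDR of 0.863.

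**Figure D3:**
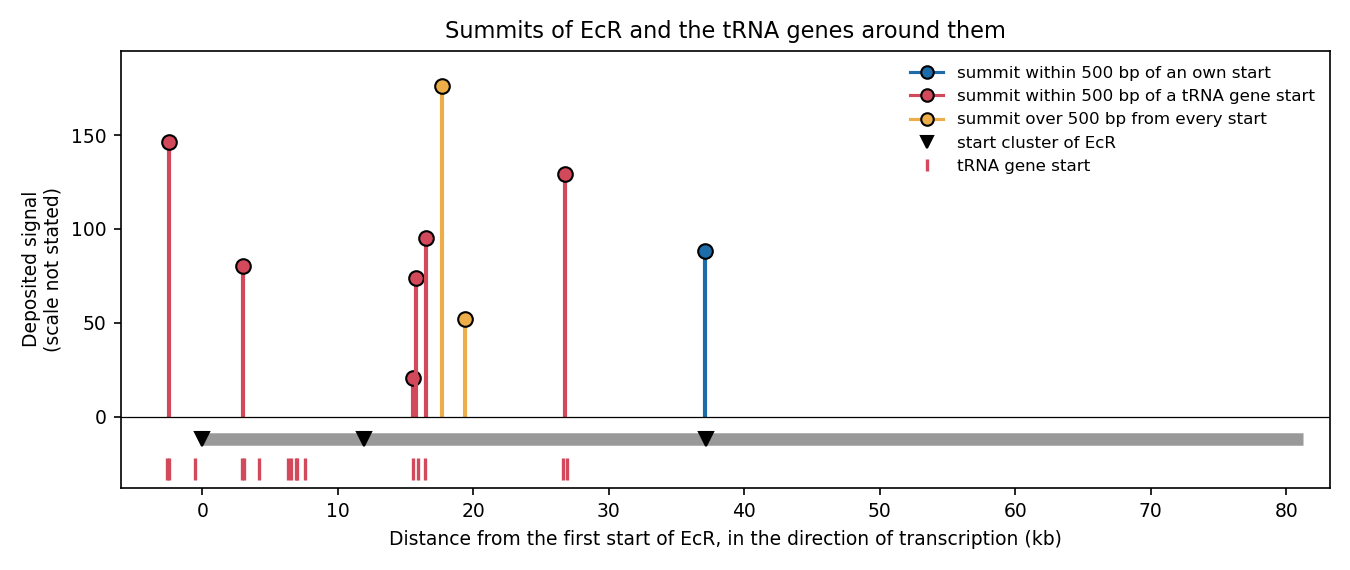
Summits of EcR by distance from its first start in kb (horizontal) and deposited signal (vertical, scale not stated). Red marks under the gene are tRNA gene starts and black triangles the 3 start clusters of EcR. The tRNA summits lie between -2.50 and 26.8 kb, and the tallest summit, 176.2, is in an intron.

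The other receptor subunit, usp (FBgn0003964), is the shortest of the 9 genes at 3514 bp, on the minus strand at chrX:2038798-2042311. Its 1 summit lay 135 bp upstream of the RA start, inside the intron of the longer RB transcript. The signal was 265.4, percentile 83.7, with 147.6 in replicate 1 and 124.4 in replicate 2. It was the highest own-start value among the 9 genes and was in both replicates' own sets. The RB start had an entry with an IDR of 0.736 only. The strongest entry of the territory that missed the threshold was at the start of CG4325, at a −log10 IDR of 1.84.

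br (FBgn0283451), the Broad zinc-finger factors of the early response, has 7 start clusters over 89738 bp at chrX:1575132-1664869, and none had a conservative summit. The best entries at those starts had IDRs of 0.62 to 0.86 and signals of 3.85 to 25.6. Replicate 1's ranked list had an entry at 1 of the 7 and replicate 2's at 6. Both summits in the br territory were beyond its end. One was 7 bp from the start of dor, a vacuolar sorting gene, with a signal of 184.8 (124.5 and 63.7). The other was 126 bp upstream of CG3740, with 299.7 (210.4 and 95.2), the highest value in any of the 9 territories. Both held TATCGA and both were in each replicate's own set.

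Eip74EF (FBgn0000567) encodes ETS-domain transcription factors and lies on the minus strand at chr3L:17558672-17619325. Of its 3 start clusters the far upstream one, shared by RA, RC and RE, had a summit 44 bp upstream, with a signal of 77.7 (48.8 in replicate 1 and 31.2 in replicate 2). The RB and RD starts, 42.7 and 43.0 kb downstream, shared a weaker entry with an IDR of 0.3 and a signal of 65.1. A pair of intron summits followed. At 45.3 kb the signal was 77.0 (43.1 and 31.1), in neither replicate's own set, and at 55.6 kb it was 123.3 (65.7 and 47.0), in both. The window of the last held 15 overlapping copies of GAGAG and that at 45.3 kb held 3, as the sequences above show. Past the end of the gene, 35 bp upstream of CycT, the cyclin of the elongation kinase P-TEFb, the signal was 286.4 (158.5 and 134.9). That window held TATCGA 4 times and no GAGAG.

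Eip75B (FBgn0000568), a nuclear receptor that binds haem, is the longest of the 9 at 113744 bp, on the minus strand at chr3L:17950953-18064696. Of its 7 starts only that of RC had a summit, given as a pair of overlapping entries 170 and 371 bp downstream of it in the 5' UTR. Their signals were 17.0 and 58.8, at or under percentile 10.6. The replicates had 32.7 and 36.4, and neither replicate's own set held a summit inside the peaks. In the pooled peak set the summit of Eip75B was not within 500 bp of a start. The RD start came next with an IDR of 0.033 and a signal of 58.3 (25.7 and 27.9), then RA with 0.092, while the starts of RF, RE and RB had no entry of the pair.

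Among the other nuclear receptors of the cascade, Eip78C (FBgn0004865, chr3L:21226609-21266503, plus strand) had 1 summit, 79 bp upstream of its RB start. The signal was 80.5, with 64.4 in replicate 1 (percentile 39.9) and 26.0 in replicate 2, near the bottom there (percentile 0.316). It was the closest to the threshold of the 28, with a −log10 IDR of 2.02 against the limit of 2. Its upstream starts had no entry of the pair.

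Hr3 (FBgn0000448, minus strand, chr2R:10203995-10237348) represses early genes and activates ftz-f1. Its summit 89 bp upstream of the RA, RF and RH start, which a transcript of CG46321 shares, had a signal of 92.9 (48.3 and 40.7) and held TATCGA. Intron summits 2661 and 8187 bp downstream of that start had 69.8 and 73.9, with 37.1 and 43.7 in replicate 1 and no entry inside the peaks in replicate 2. None of the 3 was in either replicate's own set. The RD start had no entry of the pair and that of RC and RI one with an IDR of 0.624.

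Hr4 (FBgn0264562, plus strand, chrX:1941940-2007956), also a nuclear receptor, had no summit at its starts. The best entries there had IDRs of 0.111 at RE and RF (signal 59.1) and 0.729 at the upstream start (35.3). A pair of overlapping entries past its end, 135 bp downstream and 79 bp upstream of the start of PIG-K, a GPI transamidase subunit, had signals of 76.2 and 19.4 (43.6 and 34.7 in the replicates).

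ftz-f1 (FBgn0001078, minus strand, chr3L:18750607-18801309) encodes a receptor that gives tissues the competence to respond to later hormone pulses. It was the only one of the 9 with conservative summits at more than 1 own start cluster. The summit 261 bp upstream of the RB start, and 258 bp from the divergent lncRNA:CR45939, had a signal of 216.9 (168.6 and 51.8). It stood at percentile 82.3 in replicate 1 and 51.8 in replicate 2, and held both TATCGA and GAGAG. The summit 146 bp upstream of the RC and RD start had 102.9, with 73.6 in replicate 1 and no entry in replicate 2, and its window held 12 copies of GAGAG. The RA start, 36.4 kb into the gene, had an entry with an IDR of 0.863. Past the end of the gene, an overlapping pair 165 bp downstream and 38 bp upstream of Atg3, an autophagy enzyme, had signals of 6.47 and 204.8 (127.9 and 72.5 in the replicates).

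By start, 8 of the 33 start clusters of the 9 genes (24.2%) had a conservative summit, against 23.1% of all start clusters of protein-coding genes. Counted by gene, 7 of 9 (77.8%) had one at an own start, against 26.5% of all protein-coding genes and 37.9% of those with 2 or more start clusters. Both br and Hr4 had none. A gene with more starts has more chances to be marked, and the 9 genes have 2 to 7 start clusters each. No share is given for genes with as many starts, whereas the shares by start were close. The counts of marked starts and genes changed with the replicate. The own set of replicate 1 marked 5 of the 33 start clusters, in 4 of the 9 genes, against 21.2% of all start clusters and 24.5% of all protein-coding genes. That of replicate 2 marked 2 of the 33, in 2 of the 9 genes, against 15.1% and 17.6%. Those 2 were the RA start of usp and the RB start of ftz-f1. In both sets the share by start was lower than over all start clusters, and the share by gene was higher than over all genes. Of the 25 starts without a summit, 19 had a weaker entry of the pair within 500 bp, 3 of them at an IDR of 0.1 or less, and 6 had none. The marked start of EcR, usp, Eip78C and Hr3 was the most downstream of its gene, whereas Eip74EF was marked at the most upstream one. Just inside the threshold, after Eip78C, was the Hr3 summit at 12.1 kb with a −log10 IDR of 2.07. Just outside it were an EcR intron entry at 1.94 with a signal of 66.6 and an Eip74EF intron entry at 1.92 with 55.9.

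**Figure D4:**
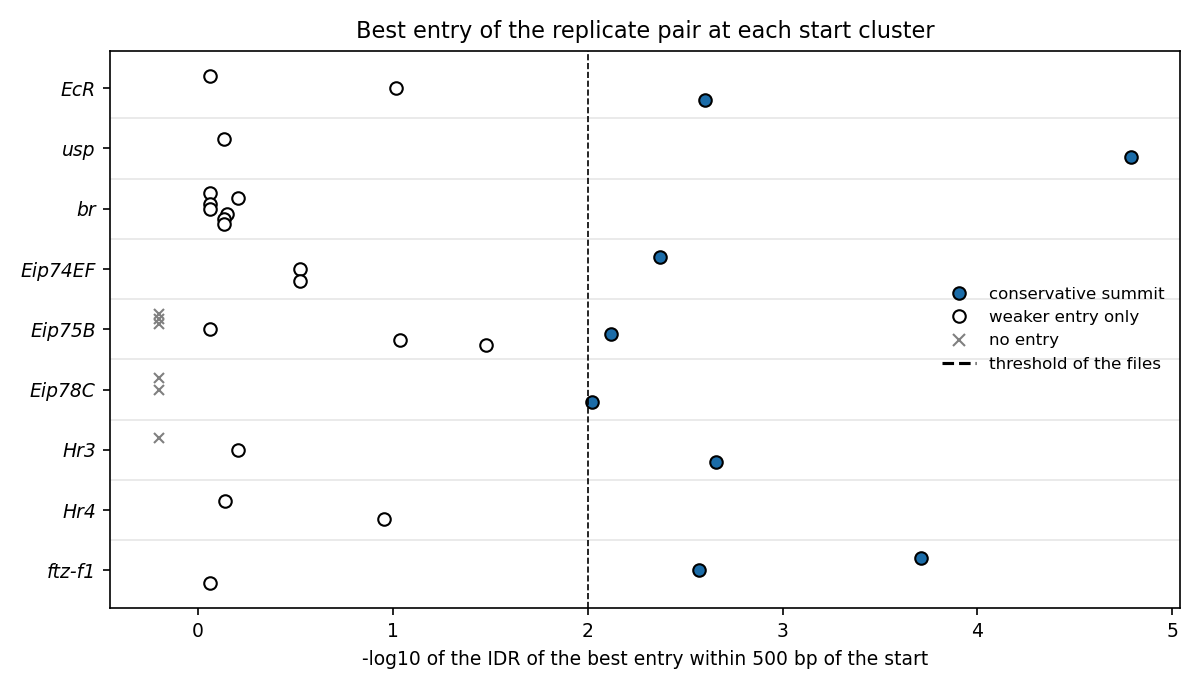
Best entry of the replicate pair within 500 bp of each of the 33 start clusters, by −log10 IDR (horizontal), with the starts of a gene ordered from upstream (top) to downstream. Filled circles are starts with a conservative summit, open circles have a weaker entry and crosses have none. The dashed line is the threshold of the files at 2. The 7 starts of br all lie near 0, and usp has the highest value, 4.79.

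The sequence under the summits differed with what they lay beside. Their signal did too, with medians of 88.0 at own starts, 75.5 away from starts, 184.8 at other genes' starts and 87.8 at tRNA genes. Place and signal cannot be told apart here. GAGAG was within 100 bp of 7 of the 9 own-start summits and 4 of the 6 summits away from starts, 11 of 15 together (73.3%), and of 0 of the 13 at other genes or tRNA genes. Over all conservative summits the share was 26.1%, over those within 500 bp of a start 23.3% and over those away from starts 49.0%. GAGAG was in 26.2% of those near tRNA genes and 36.2% of those below the median signal. It was in 22.3% of windows 1000 bp to either side and 25.0% of protein-coding start windows. The 4 of 15 without it were usp, both EcR introns and 1 of the overlapping Eip75B entries. TATCGA went the other way. It was at 5 of the 7 summits beside other genes' starts, 2 of 9 at own starts (Hr3 and ftz-f1 RB), 1 of 6 away from starts (EcR) and 0 of 6 at tRNA genes. In all it was in 8 of 28 windows (28.6%), against 48.5% of all conservative summits and 52.3% of those within 500 bp of a start. It was in 23.3% of summits below the median signal, 20.1% of protein-coding start windows and 7.15% of flanks. In the own set of replicate 2 it was in 6 of 8 summits of these territories (75%), against 60.5% of all summits of that set, and in that of replicate 1 in 8 of 18 (44.4%), against 52.8%. The joining of own-start and away summits for GAGAG was not planned beforehand, and GAGAG was 1 of several motifs counted. These are counts of letters, and binding of the GAGA factor or DREF was not measured.

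**Figure D5:**
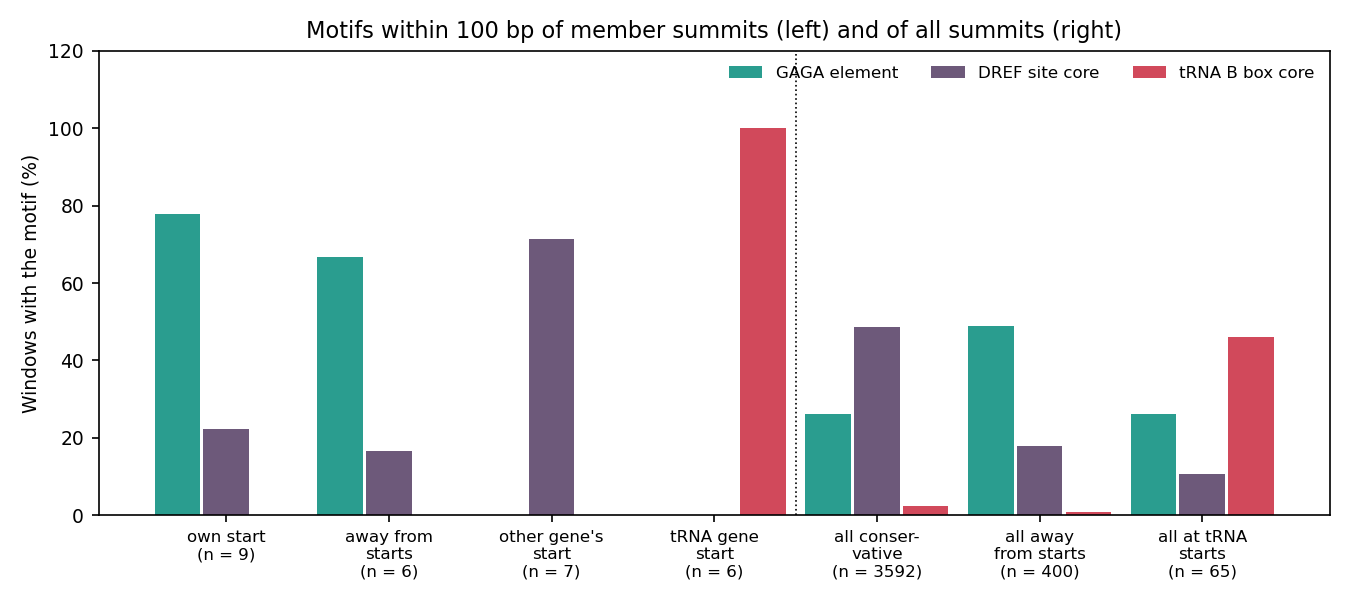
Share of windows of 100 bp to each side of a summit that hold each motif (vertical, %), by class of summit. Left of the dotted line are the summits in the territories of the 9 genes, and right of it all conservative summits, those away from starts and those at tRNA genes, with n under each class. The GAGA element is in 77.8% of own-start summits and 0% of those at other genes' starts, where the DREF core is in 71.4%.

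Sites of the ecdysone receptor itself were not found as letters in these windows. AGGTCA, the core letters that many nuclear receptors bind, was in 0 of 28 windows and in 3.31% of all conservative summits. An inverted repeat of GGTCA with 1 free base, the layout of an ecdysone response element in its strict form, was in 0 of 28 and in 0 of all 3592. TAATTA, a homeodomain core, was in 3 of 28 (10.7%), against 11.4% of all summits and 9.17% of flanks. GGTCACAC, a core promoter motif, was in 1 of 28 (3.57%), beside PIG-K, against 7.27% of all summits and 5.60% of protein-coding start windows. TATCGATA was in 4 of 28 (14.3%) against 21.9% of all summits, and CACGTG in 0 against 3.95%. CANNTG was in 15 of 28 (53.6%) against 62.0%, and TATAAA in 8 (28.6%) against 24.5%. Both strands were read, TATCGATA contains TATCGA, and CACGTG is also a CANNTG.

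Other genes of the pathway were taken from 4 lists. Of 65 matched genes 17 (26.2%) had a summit at an own start, against 26.5% of all protein-coding genes, and 37 (56.9%) had one in the gene or within 5 kb, against 50.1%. By list, 7 of 15 co-factors of the receptor were marked at an own start, 6 of 27 other regulated genes and nuclear receptors, 2 of 17 genes of ecdysteroid synthesis and transport, and 2 of 7 genes of upstream signals and juvenile hormone. Among the co-factors, kto, the Mediator subunit Med12, had a signal of 299.6 (198.5 and 96.1), the remodelling ATPase Iswi 293.4 (158.4 and 131.6), and Hsp83, the Hsp90 chaperone, 284.3 (201.0 and 76.8). The histone methyltransferase trr had 209.0 (128.9, with no entry in replicate 2). The demethylase Utx had 190.0 and the coactivator tai 132.3. Outside the co-factors, ecd, needed for ecdysone production, had 294.1 (198.2 and 94.3) and Npc1a, which moves sterols, 127.3. The zinc-finger gene crol had 263.4 (140.5 and 144.2). The nuclear receptors ERR and Hr96 had 118.0 and 107.6, and tor, the receptor of the prothoracicotropic hormone, 105.1. The remaining 5 were svp, Met, Eip63E, kni and brm, with signals from 105.0 down to 60.1. Of the 17 own-start windows 9 held TATCGA and 4 GAGAG, against 2 and 7 of the 9 own-start windows of the ecdysone receptor and response genes. The units differ, since the 17 are 1 window per gene. The 9 come from 7 genes, with ftz-f1 at 2 starts and Eip75B with 2 overlapping entries, of which the stronger lacked GAGAG.

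All 9 genes have 2 to 7 start clusters, and 6 of them had a summit at exactly 1. The share was 19.1% of all protein-coding genes with 2 or more start clusters, which are not matched for the number of starts. Outside the 9, the genes with most start clusters marked were CkIalpha, with 5 of 5, Edem1, TRAM and cact, with 4 of 4 each, and Arf1, with 4 of 5. A summit can mark more than 1 start there, since 2 summits marked all 5 starts of CkIalpha.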

How the data were processed

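Chromatin immunoprecipitation was sequenced from 2 biological replicates of 1 group, per the labels' descriptions. The authors deposited peak files on dm6, derived per the deposited README files from filtered alignments and 1 control file. The aligner is not given in the sources used here, nor is the peak caller. A deposited signal stands beside every peak. It is an enrichment value on an unstated scale, which is compared as ranks within a file. A further deposited column of the ranked lists is −log10 of the IDR, which was never under 2 (IDR 0.01) for conservative peaks. Depth is unknown.

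The conservative set (3592 of 3595 peaks on chromosome arms) was used with Ensembl 115 gene models and RefSeq sequence, both of Release 6. All 9 genes matched by symbol, with the same coordinates in both annotations. A gene's starts were merged when at most 100 bp apart. Replicate signals came from the nearest entry inside the peak in each replicate's own ranked list, in place of the planned columns of the pair's list, since 2 columns of per-sample values there name no sample and were not used. The thresholded set of both replicates that is not called conservative is the pooled set. No test was made. Named genes were the 9, every gene whose start is nearest to their summits, up to 12 pathway genes marked at an own start by signal, those in counts of 5 or fewer, and the 5 genes with most starts marked. The members and lists were chosen with earlier results of these data known. Other peak sets, territories, windows, merging of starts and thresholds were tried. Counting was tested on simulated data, in Python 3.11.15 with pandas 2.3.3, numpy 2.4.6 and scipy 1.17.1.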

Additional observations from a re-analysis of the deposited data

How the results depend on the processing

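With an IDR of 0.001 or peaks at or above the median signal, the number of the 9 genes with a summit fell from 9 to 5, the summits in their territories from 28 to 10, the genes marked at an own start from 7 to 2, and the start clusters from 8 to 2. Fewer peaks pass these settings anywhere. Shares over all genes and start clusters are not given for them, so whether the falls are particular to the 9 genes cannot be said. The EcR count fell from 9 to 2 at the stricter IDR, to 3 at the median signal, and to 3 without summits at tRNA genes, an alternative added after the data were seen. The share of summits with TATCGA rose from 28.6% to 60% (6 of 10) under both and was 14.3% in windows of 50 bp. Over all conservative summits it was 48.5%, but 23.3% below the median signal, so stronger summits held it more often in general. The shares of all summits at the stricter IDR and in windows of 50 bp are not given here. In the gene alone there were 18 summits. Using 1 replicate's own set, the ranges were 5 to 7 genes, 8 to 18 summits, 1 to 7 at EcR, 2 to 4 genes and 2 to 5 start clusters marked, 44.4% to 75% with TATCGA and 50% to 75% with GAGAG. The causes were not tested. The share of summits at any start and that with GAGAG stayed inside their 95% Wilson intervals under every alternative run. Such intervals treat summits as independent, but 8 member entries share their pair of replicate intervals with another entry. Many alternatives also reuse the same summits, so staying inside is not a measure of stability. For GAGAG the interval was wide, from 48.0% to 89.1%. At an IDR of 0.001 and at the median signal its share fell from 73.3% (11 of 15) to 50% (2 of 4), which is too few summits to judge by. The pooled set, territories of 2 and 10 kb, and the other promoter windows and merging distance gave counts within 1.5 times those reported. No paired analysis was possible because there is 1 group. Library depth is unknown, so of a start without a summit it can be said only that none was detectable in these libraries.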
